A study of Mus musculus with 4 samples.

Results

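The 44 genes described here encode the carriers, enzymes and regulators that take glucose to pyruvate and lactate, and pyruvate through the tricarboxylic acid (TCA) cycle. They were chosen by gene name and pathway, and all 44 were found among the 48431 genes of the table. They comprise 4 membrane transporters, 19 genes of glycolysis and lactate formation, 8 genes of the pyruvate dehydrogenase complex and its kinases, and 13 genes of the TCA cycle. RNA had been measured in 4 libraries from dorsal root ganglia, which hold the cell bodies of the sensory neurons that serve skin, muscle and viscera. All 4 came from male mice with the strain label SW and the genotype label WT, which had been given methylglyoxal (MGO) intraperitoneally at 2 mg/kg for 6 days. The labels give no age and do not say whether a library stands for 1 animal or several. No vehicle group was analysed, so the comparisons run between genes within a library and between libraries, and none of them measures a response to MGO.

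Glycolysis splits glucose in the cytosol into pyruvate with a small yield of ATP, and lactate dehydrogenase interconverts pyruvate and lactate. The pyruvate dehydrogenase complex turns pyruvate into acetyl-CoA inside mitochondria, its kinases switch it off by phosphorylation, and the TCA cycle oxidises the acetyl group and passes electrons to the respiratory chain. MGO forms spontaneously from the triose phosphates of glycolysis, the substrates of Tpi1 and Gapdh. Myelinating Schwann cells and satellite glia surround the neurons of the ganglion, and glia are known to pass lactate to axons through monocarboxylate transporters.

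Values are given in CPM, counts scaled to a total of 1000000 in each library. The libraries were made with a kit that reads the 3′ ends of transcripts, a method meant to give each transcript 1 read whatever its length. The difference between these libraries nonetheless moved with length, by an amount given with the library pairs. Where genes were compared with each other, the comparison was also made after division by exonic length, and both results are given. This length joins the exons of all annotated transcripts of a gene. It can exceed the length of any single transcript, so values per length depend on the annotation. If the smallest step in the values is 1 read, replicates 1 to 4 hold about 10138773, 8975727, 5576820 and 7223786 reads, and 3 reads equal 0.296, 0.334, 0.538 and 0.415 CPM. The libraries fell into pairs: ribosomal RNA entries of the 18S locus were listed at 0 in replicates 1 and 2 and took 8.26% and 10.8% of replicates 3 and 4. Mitochondrially encoded genes took 3.13%, 2.44%, 4.90% and 5.04% of replicates 1 to 4. All 10 neuronal markers examined were detected in every library. Fewer cells of a type and less RNA per cell cannot be told apart in such bulk samples.

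Several of the 44 genes have near-identical copies elsewhere in the genome, and for these the reads could have been split or dropped. The sequences below are the last 90 coding bases, 5′ to 3′, of Gapdh (glyceraldehyde-phosphate dehydrogenase) and Eno1 (enolase 1). Each is set beside copies or a sister isoform, read from GENCODE M21 on GRCm38. They show how alike these genes are in this stretch, and where the reads fall on each transcript was not examined. Capitals mark bases that differ from the first gene of the set.
Gapdh, minus strand of chromosome 6: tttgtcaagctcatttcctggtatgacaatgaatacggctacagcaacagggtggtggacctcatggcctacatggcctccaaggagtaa
Gm3839, a copy on chromosome 14: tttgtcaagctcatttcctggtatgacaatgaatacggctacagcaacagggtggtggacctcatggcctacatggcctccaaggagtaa
Gm5069, a copy on chromosome 1: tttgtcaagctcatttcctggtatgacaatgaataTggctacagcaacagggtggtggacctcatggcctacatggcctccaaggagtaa
Eno1, plus strand of chromosome 4: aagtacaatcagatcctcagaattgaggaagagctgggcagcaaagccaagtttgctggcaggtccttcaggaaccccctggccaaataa
Eno2, the sister isoform on chromosome 6: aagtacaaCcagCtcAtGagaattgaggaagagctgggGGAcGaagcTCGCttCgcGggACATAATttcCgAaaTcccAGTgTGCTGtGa

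The Gapdh stretch matched that of Gm3839 at every base and differed from Gm5069 at 1 base. Eno2 differed from Eno1 at 33 of the 90 bases. Over whole transcripts the longest exact run shared was 315 bases for Gapdh and Gm3839, and 835 bases for Eno1 and its near-identical copy Eno1b, but 20 bases for Eno2 and Eno1. Between the isoforms and subunits compared below, shared runs ranged from 10 bases (Idh2 and Idh3a) to 27 bases (Hk1 and Hk2). Copies with at least 95% identity over at least 200 bases were found for 12 of the 44 genes. The only such entry for Pfkfb2, Gm29427, overlaps Pfkfb2 itself and does not lie elsewhere in the genome. Gapdh had 77 copies, of which 74 were listed in the table, and these summed to between 0.831 and 1.97 CPM per library. Pgk1, the gene of phosphoglycerate kinase, had 4 copies, of which 2 were listed, at 0 to 1.78 CPM in sum. The 3 copies of Eno1 summed to at most 0.0986 CPM. How reads with several matches were counted is not given in the sources used here, so the levels of Gapdh, Pgk1 and the other genes with copies are uncertain.

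Taken as a set, the 44 genes were abundant. Of them, 43 reached 1 CPM in all 4 libraries, which 12827 of the 48431 listed genes (26.5%) also did, and Pdk4 fell short in 1 library. Their median level was 56.7 CPM, against 19.1 CPM for all genes detected in every library. They held 0.541%, 0.553%, 0.248% and 0.223% of the CPM in replicates 1 to 4, or 0.391% ± 0.180 (SD, n = 4). The glycolytic genes held 0.234% ± 0.123 of a library, the TCA cycle genes 0.108% ± 0.0566, the pyruvate dehydrogenase genes 0.0393% ± 0.00428 and the transporters 0.00963% ± 0.00138 (SD, n = 4 each).

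**Figure D1:**
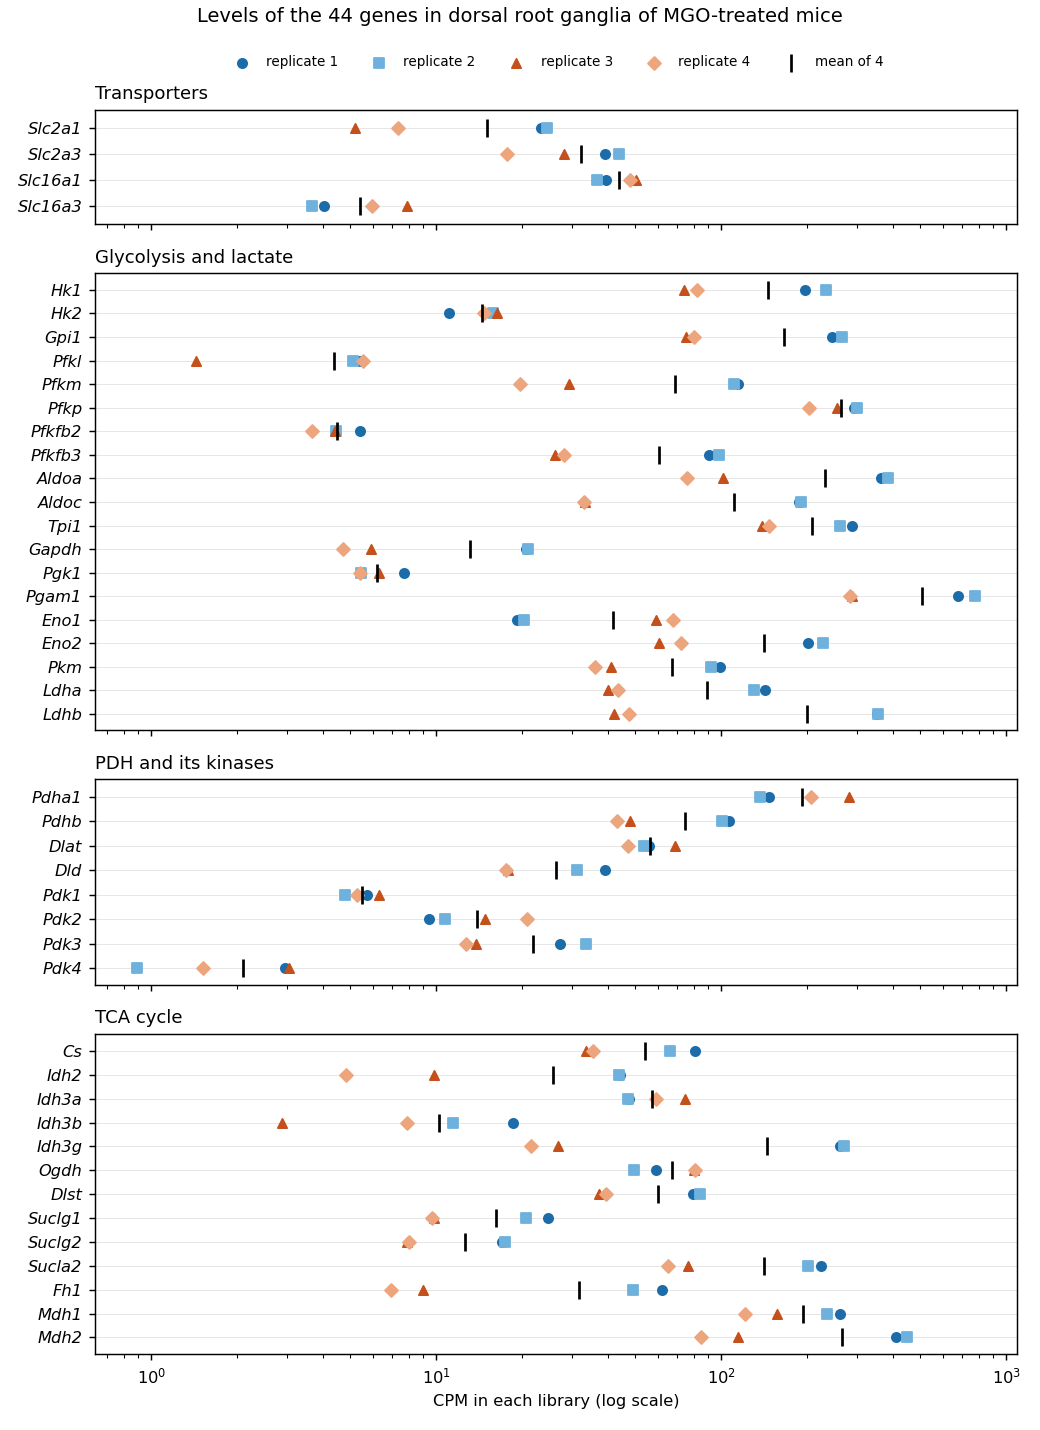
CPM of each of the 44 genes in the 4 libraries, on a log axis, with 1 panel for each functional group. Coloured symbols are single libraries and black ticks the mean of 4. By mean, Pgam1 lies furthest right at 507 CPM and Pdk4 furthest left at 2.11 CPM, and for most genes the blue symbols of replicates 1 and 2 lie to the right of the orange symbols of replicates 3 and 4.

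Isoforms and subunits were compared within libraries on the log2(CPM + 1) scale. For each reference gene, limma fitted the difference of all 14816 genes averaging 1 CPM or more, with Benjamini-Hochberg adjustment over all of them and a threshold of 0.05. Any gene taken at random can differ from the reference, so the share of all genes called against it is given beside the first result. Because all differences from 1 reference share that gene's own noise, limma's moderated variance counts more evidence than 4 libraries hold. The adjusted p without the moderation is therefore printed after the first one. The 4 libraries are counted as independent, although they fall into pairs, and the p-values cover only the spread between these libraries. An exact sign-flip test on 4 libraries cannot give a p below 0.125. Of 24 comparisons, 15 (62.5%) passed with limma, where between 58% and 95.8% of all genes differed from the 16 reference genes, a range that holds the share of comparisons called. Without the moderation 15 passed as well, against 62.7% of all gene and reference pairs, and per length 14 passed, against 72.9%. With both variances 13 passed, and 11 of these also per length, but the share of all genes passing these joint rules was not computed. A fit with the library pair as a term, which leaves only the spread within pairs, called 22, against 91.3%. In 20 of the 24 comparisons the difference had the same sign in all 4 libraries. The share of all gene and reference pairs with a constant sign was not computed, so this count has no background beside it.

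Glucose enters cells by facilitated diffusion through Slc2a1 (GLUT1), the carrier of barriers and glia, and Slc2a3 (GLUT3), the high-affinity carrier typical of neurons. Slc2a3 had 39.2, 43.8, 28.2 and 17.7 CPM in replicates 1 to 4. Slc2a1 had 23.3, 24.4, 5.20 and 7.34 CPM. Slc2a3 was thus the higher in every library, and both were lower in replicates 3 and 4. The difference was 1.24 ± 0.43 on the log2 scale (SE, n = 4, adjusted p = 0.0373 with limma), where 58% of all genes differed from Slc2a1. It did not hold without the moderation (adjusted p = 0.0845 from limma's unmoderated fit), per length (0.23, limma adjusted p = 0.671), or when any 1 library was left out (limma adjusted p between 0.0573 and 0.122). With 1 library left out the difference itself stayed between 0.90 and 1.41. In the fits without replicate 1 and without replicate 2, limma took the variance as exactly known.

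Lactate and pyruvate cross membranes through Slc16a1 (MCT1), widely expressed and found in glia, and Slc16a3 (MCT4), typical of strongly glycolytic cells. Slc16a1 had 39.6, 36.8, 50.2 and 48.0 CPM in replicates 1 to 4. Slc16a3 had 4.04, 3.68, 7.89 and 5.95 CPM. Both were higher in replicates 3 and 4, and Slc16a1 was well above Slc16a3 in each library. The difference was 2.84 ± 0.21 on the log2 scale, a 7.17-fold ratio (SE, n = 4, limma adjusted p = 8.78e-05 and 0.00153 without the moderation), where 70.4% of all genes differed from Slc16a3. It was 3.01 in replicates 1 and 2, against 2.67 in replicates 3 and 4, and 2.92 per length.

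The hexokinases trap glucose by phosphorylation. Hk1, the constitutive mitochondrial form and the main form of brain, had 197, 232, 73.9 and 82.2 CPM in replicates 1 to 4. Hk2, the insulin-regulated form of muscle and fat, had 11.05, 15.8, 16.3 and 14.7 CPM. Hk1 took 94.7%, 93.6%, 81.9% and 84.9% of their sum, Hk1 being lower in replicates 3 and 4 and Hk2 staying between 11.05 and 16.3 CPM. Hk1 exceeded Hk2 by 3.09 ± 0.36 on the log2 scale, an 8.51-fold ratio (SE, n = 4, limma adjusted p = 3.88e-05 and 0.0175 without the moderation), where 76.9% of all genes differed from Hk2. The difference was 2.49 per length.

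Gpi1, which converts glucose 6-phosphate to fructose 6-phosphate, had 245, 266, 75.5 and 80.2 CPM in replicates 1 to 4. Phosphofructokinase, the committed step, has 3 subunit genes named for liver (Pfkl), muscle (Pfkm) and platelet (Pfkp). Pfkp (GRCm38 chr13:6579768-6648777, minus strand) had 291, 299.9, 256 and 204 CPM. Pfkm had 114, 111, 29.2 and 19.7 CPM, and Pfkl 5.42, 5.12, 1.43 and 5.54 CPM. In CPM Pfkp was the most abundant in each library and the most even of them across libraries, with 70.9%, 72.0%, 89.3% and 89.0% of the sum. The Pfkl value of replicate 3 rests on about 8 reads.

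Pfkl differed from Pfkp by -5.70 ± 0.30 on the log2 scale (SE, n = 4, limma adjusted p = 1.47e-06 and 0.00107 without the moderation), where 95.8% of all genes differed from Pfkp. This comparison also passed per length, at -4.34 (limma adjusted p = 1.73e-05). Pfkm differed from Pfkp by -2.29 ± 0.39 (SE, n = 4, limma adjusted p = 0.000966 and 0.0246 without the moderation). Per length that difference was -0.30 (limma adjusted p = 0.507). The exons joined over all annotated transcripts cover 3340 bases for Pfkm and 13401 for Pfkp. Pfkm exceeded Pfkl by 3.41 (n = 4, adjusted p = 0.0284 from limma's unmoderated fit), where 47.9% of all genes differed from Pfkl. With the moderation 67.8% did, but limma then took the variance for this reference as exactly known, and that p is not given. The exons of Pfkp overlap those of Pitrm1 on the other strand by 748 bases, and Pitrm1 had a mean of 11.3 CPM.

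Pfkfb3 and Pfkfb2 make and break down the sugar phosphate that activates phosphofructokinase. Pfkfb3, an isoform with a strong bias towards its kinase activity, had 90.3, 97.9, 26.2 and 28.1 CPM in replicates 1 to 4. Pfkfb2, first known from heart, had 5.42, 4.45, 4.40 and 3.68 CPM. Pfkfb3 was the higher by 3.24 ± 0.35 on the log2 scale (SE, n = 4, limma adjusted p = 0.000142 and 0.0117 without the moderation), where 77.5% of all genes differed from Pfkfb2, and by 2.86 per length. Pfkfb2 shares 1262 exonic bases on its own strand with Gm29427, which had at most 2.195 CPM, so its level is uncertain.

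Aldolase splits fructose bisphosphate into the triose phosphates. Aldoa, the general and muscle form, had 363, 385, 101 and 75.6 CPM in replicates 1 to 4, and Aldoc, the form of brain, had 188, 191, 33.2 and 33.1 CPM. Both were far lower in replicates 3 and 4, and Aldoa kept 66.0%, 66.9%, 75.3% and 69.6% of the sum. Aldoa was the higher in 4 of 4 libraries, by 1.18 ± 0.60 on the log2 scale (SE, n = 4), which did not pass with limma (adjusted p = 0.0973) and passed without the moderation (adjusted p = 0.0252) and with the library pair as a term (limma adjusted p = 3.58e-05). Of all genes, 67.7% differed from Aldoc with limma, 46.4% without the moderation and 95.2% with the library pair as a term. Per length the difference was 1.34 (limma adjusted p = 0.0564).

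Tpi1, triose phosphate isomerase, which keeps the triose phosphates in balance, had 288, 262, 139 and 147 CPM in replicates 1 to 4. Gapdh, the next enzyme and a common loading control, had 20.7, 21.1, 5.92 and 4.71 CPM, and Pgk1, the first ATP-yielding step, had 7.69, 5.46, 6.28 and 5.40 CPM. Gapdh and Pgk1 thus lay far below their neighbours in the pathway, near percentile 39.9 and 22.3 of the detected genes. Per kilobase of exon Gapdh averaged 3.17 CPM and Pgk1 2.77 CPM, against 75.9 CPM for Tpi1. Both have near-identical copies, Gapdh among the sequences above, and adding the listed copies would raise Gapdh by at most 1.97 CPM and Pgk1 by at most 1.78 CPM. Whether reads with several matches account for the low levels was not tested. Pgam1, phosphoglycerate mutase (GRCm38 chr19:41911923-41918660, plus strand), was the highest of the 44 at 677, 778, 289 and 283 CPM, percentile 98.3 of the detected genes. It also led per length, at 256 CPM per kilobase.

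Enolase makes phosphoenolpyruvate. Eno2 (GRCm38 chr6:124760053-124769673, minus strand) is the neuronal form and a classic neuron marker, and had 202, 229, 60.6 and 72.1 CPM in replicates 1 to 4. Eno1 (GRCm38 chr4:150236721-150248879, plus strand) is the general form, and had 19.2, 20.4, 59.0 and 67.8 CPM. The genes moved in opposite directions between the library pairs, so Eno2 held 91.3% and 91.8% of their sum in replicates 1 and 2 but 50.7% and 51.5% in replicates 3 and 4. On the log2 scale Eno2 lay 3.38 above Eno1 in replicates 1 and 2, against 0.06 in replicates 3 and 4. Over 4 libraries it was 1.72 ± 0.70 (SE, n = 4) and did not pass (limma adjusted p = 0.0547 and 0.236 without the moderation), where 60.7% of all genes differed from Eno1. It passed with limma per length (1.88, adjusted p = 0.0407), with the library pair as a term (adjusted p = 1.12e-08), with no filter on low genes (adjusted p = 0.00417), and without replicate 3 or replicate 4 (adjusted p = 0.00629 and 0.00743). It did not pass without replicate 1 (limma adjusted p = 0.132) or without replicate 2 (limma adjusted p = 0.163). Nor did it pass with 1 value per library pair (limma adjusted p = 0.191), a pseudocount of 0.1, rescaling or copies added. In the fits without the filter, without replicate 1, 2 or 3, and with 1 value per library pair, limma took the variance as exactly known. With the library pair as a term 91.9% of all genes differed from Eno1. That fit tests the midpoint of 3.38 and 0.06, so it does not show a difference in replicates 3 and 4.

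Pkm, pyruvate kinase, had 99.4, 92.4, 41.1 and 36.1 CPM in replicates 1 to 4. Lactate dehydrogenase is built from the muscle-type subunit Ldha and the heart-type subunit Ldhb. Ldhb had 353, 355, 42.1 and 47.5 CPM, and Ldha 142, 130.1, 40.0 and 43.3 CPM. Ldhb was 71.4% and 73.1% of the sum in replicates 1 and 2, and 51.3% and 52.3% in replicates 3 and 4. Ldhb was the higher in 4 of 4 libraries, yet the difference of 0.74 ± 0.39 on the log2 scale (SE, n = 4) did not pass (limma adjusted p = 0.127 and 0.171 without the moderation), where 76.5% of all genes differed from Ldha. It passed per length, at 1.80 (limma adjusted p = 0.00481), and with the library pair as a term (limma adjusted p = 0.000103), but not with 1 value per library pair (limma adjusted p = 0.482). With the library pair as a term 94.3% of all genes differed from Ldha. That fit tests the midpoint of 1.37 in replicates 1 and 2 with 0.10 in replicates 3 and 4.

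**Figure D2:**
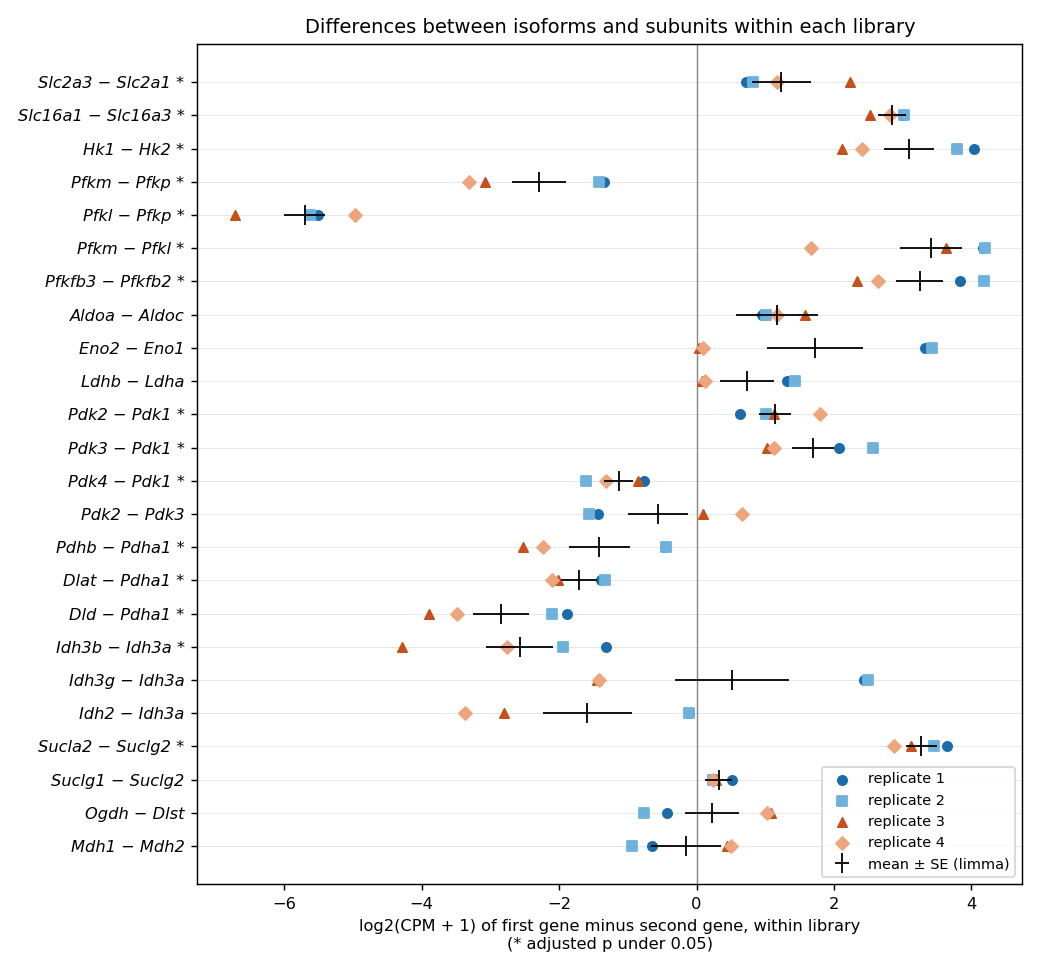
Difference of log2(CPM + 1) between the first and the second gene named, within each library, for the 24 comparisons. Coloured symbols are libraries, black ticks with bars are the mean and its limma SE, and asterisks mark the 15 with a limma adjusted p under 0.05. The 4 symbols lie close together for Slc16a1 against Slc16a3 and Sucla2 against Suclg2, and in separate pairs for Eno2 against Eno1 and Idh3g against Idh3a.

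The first component of pyruvate dehydrogenase is made of Pdha1 and Pdhb, and Dlat and Dld are its acetyl-transfer and dihydrolipoyl dehydrogenase components. Pdha1, the subunit that the kinases phosphorylate, had 147, 137, 280.4 and 207 CPM in replicates 1 to 4. Pdhb had 106, 100.4, 47.9 and 43.2 CPM, Dlat 55.7, 53.6, 68.9 and 47.2 CPM, and Dld, which also serves other dehydrogenase complexes, 39.1, 31.1, 17.9 and 17.6 CPM. Pdha1 was the highest of them in each library, with 42.2%, 42.5%, 67.6% and 65.7% of their sum, and was higher in replicates 3 and 4 while its partner Pdhb was lower there. Against Pdha1, from which 91.1% of all genes differed, Dlat differed by -1.71 ± 0.26 (SE, n = 4, limma adjusted p = 0.00068 and 0.00571 without the moderation). Dld differed from Pdha1 by -2.84 ± 0.41 (SE, n = 4, limma adjusted p = 0.000552 and 0.0142). For Pdhb the difference was -1.42 ± 0.45 (SE, n = 4, limma adjusted p = 0.0208), and it did not hold without the moderation (adjusted p = 0.0945), without replicate 3 (limma adjusted p = 0.0802) or without replicate 4 (limma adjusted p = 0.0921). Per length the differences from Pdha1 were -2.08 for Dlat, -2.80 for Dld and -1.46 for Pdhb. The exons of Pdha1 overlap those of Map3k15 on the other strand by 603 bases, and Map3k15 had a mean of 0.126 CPM.

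Among the kinases that inactivate the complex, Pdk3 had 27.2, 33.4, 13.8 and 12.7 CPM in replicates 1 to 4, and Pdk2, the most widely expressed form, had 9.47, 10.7, 14.9 and 20.8 CPM. Pdk1, a target of hypoxia signalling, had 5.72, 4.79, 6.28 and 5.26 CPM, and Pdk4, the form raised by fasting, had 2.96, 0.891, 3.05 and 1.52 CPM. In CPM the leading kinase differed by library, Pdk3 with 60.0% and 67.1% of the sum in replicates 1 and 2, and Pdk2 with 39.2% and 51.5% in replicates 3 and 4, ahead of Pdk3 at 36.3% and 31.6%. Pdk4 had the lowest mean of the 44 genes, although in replicate 3 Pfkl and Idh3b were lower, and its value in replicate 2 rests on about 8 reads.

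Against Pdk1, from which 76.8% of all genes differed, Pdk3 was higher by 1.70 ± 0.31 on the log2 scale (SE, n = 4, limma adjusted p = 0.00266 and 0.0329 without the moderation). Pdk2 was higher than Pdk1 by 1.14 ± 0.23 (SE, n = 4, limma adjusted p = 0.00434 and 0.0301). Per length these differences were 2.94 for Pdk3 and 2.101 for Pdk2. Pdk4 differed from Pdk1 by -1.13 ± 0.21 (SE, n = 4, limma adjusted p = 0.00302 and 0.0206), a difference of -0.21 per length that did not pass (limma adjusted p = 0.39). Pdk2 and Pdk3, the leading kinases, differed by -0.56 ± 0.44 (SE, n = 4) and did not pass (limma adjusted p = 0.284 and 0.438 without the moderation), where 72.4% of all genes differed from Pdk3. That difference was -1.49 in replicates 1 and 2, against 0.38 in replicates 3 and 4, and -0.84 per length (limma adjusted p = 0.127). It passed with the library pair as a term (limma adjusted p = 0.000379), where 90.3% of all genes differed from Pdk3. In that fit limma took the variance as exactly known. The fit tests the midpoint of differences with opposite signs, so it does not say which kinase was higher. With 1 value per library pair the difference did not pass (limma adjusted p = 0.503).

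Citrate synthase, Cs, opens the TCA cycle and had 81.2, 66.2, 33.5 and 35.4 CPM in replicates 1 to 4. The NAD-linked isocitrate dehydrogenase has the catalytic subunit Idh3a and the partners Idh3b and Idh3g. Idh3g (GRCm38 chrX:73778963-73786897, minus strand) had 261, 269, 26.7 and 21.5 CPM. Idh3a (GRCm38 chr9:54586334-54604661, plus strand) had 47.5, 47.0, 74.4 and 59.1 CPM, and Idh3b 18.5, 11.5, 2.87 and 7.89 CPM. Idh3g had 11.01-fold more CPM in replicates 1 and 2 than in replicates 3 and 4, the widest gap of the 44, while Idh3a ran the other way. Idh3g accordingly made up 79.8% and 82.2% of the sum of the subunits in replicates 1 and 2, against 25.7% and 24.3% in replicates 3 and 4.

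Against Idh3a, from which 81.7% of all genes differed, Idh3g differed by 0.52 ± 0.83 on the log2 scale (SE, n = 4, limma adjusted p = 0.582 and 0.7 without the moderation). This is the mean of 2.46 in replicates 1 and 2 with -1.43 in replicates 3 and 4, and it was 1.40 per length (limma adjusted p = 0.175). It passed with the library pair as a term (limma adjusted p = 0.00145), where 93.2% of all genes differed from Idh3a. That fit tests the midpoint of differences with opposite signs, so it does not say which subunit was higher. Idh3b differed by -2.57 ± 0.49 (SE, n = 4, limma adjusted p = 0.0034 and 0.0385 without the moderation), and by -1.98 per length. Idh2, the NADP-linked mitochondrial enzyme, had 44.1, 43.7, 9.86 and 4.85 CPM and differed by -1.59 ± 0.65 (SE, n = 4, limma adjusted p = 0.061 and 0.188 without the moderation). The last difference was -0.11 in replicates 1 and 2, against -3.08 in replicates 3 and 4, and -0.65 per length. It passed without replicate 1 (limma adjusted p = 0.0234) or replicate 2 (limma adjusted p = 0.022), with no filter on low genes (0.0372), with a term for library pair (1.95e-06) and, barely, with 1 value per library pair (0.0499). The fit with a term for library pair tests the midpoint of -0.11 and -3.08.

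**Figure D3:**
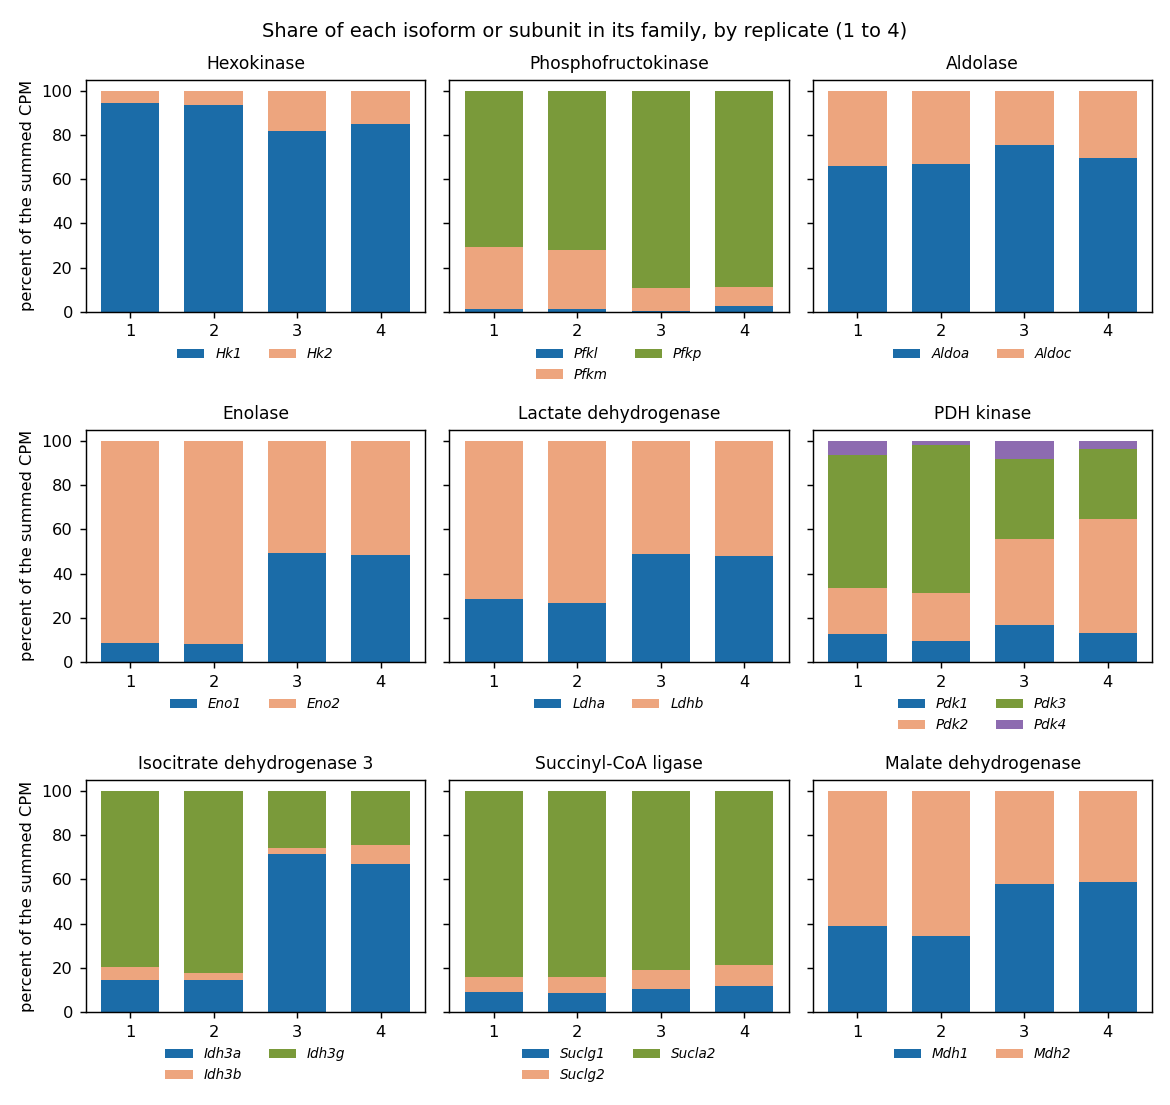
Percent of the summed CPM of a family held by each isoform or subunit, as stacked bars for replicates 1 to 4, in 9 families. Sucla2 holds between 78.6% and 84.4% of succinyl-CoA ligase in every library, whereas Idh3g holds 79.8% and 82.2% of isocitrate dehydrogenase 3 in replicates 1 and 2, against 25.7% and 24.3% in replicates 3 and 4.

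Oxoglutarate dehydrogenase has the decarboxylating component Ogdh and the succinyl-transfer component Dlst. Ogdh had 59.1, 49.2, 80.2 and 81.1 CPM in replicates 1 to 4, and Dlst 79.9, 84.3, 37.3 and 39.3 CPM. Their order changed between the library pairs, and the difference of 0.23 ± 0.39 on the log2 scale (SE, n = 4) did not pass (limma adjusted p = 0.609 and 0.693 without the moderation), where 80% of all genes differed from Dlst. Per length it was 0.99 (limma adjusted p = 0.059).

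Succinyl-CoA ligase pairs the common subunit Suclg1 with Sucla2, the ATP-forming partner typical of brain, or Suclg2, the GTP-forming partner. Sucla2 had 224, 202, 76.2 and 64.9 CPM in replicates 1 to 4, Suclg2 17.0, 17.5, 7.89 and 8.03 CPM, and Suclg1 24.7, 20.7, 9.86 and 9.69 CPM. Sucla2 held 84.4%, 84.1%, 81.1% and 78.6% of the sum, so these subunits kept nearly the same proportions while their levels differed between the library pairs. Sucla2 exceeded Suclg2 by 3.27 ± 0.23 on the log2 scale, a 9.67-fold ratio (SE, n = 4, limma adjusted p = 0.000128 and 0.00363 without the moderation), where 72.7% of all genes differed from Suclg2, and by 3.41 per length. Suclg1 differed from Suclg2 by 0.32 ± 0.20 (SE, n = 4), which did not pass with limma (adjusted p = 0.189) and passed without the moderation (adjusted p = 0.0335) and with the library pair as a term (limma adjusted p = 0.0150). Per length it was 0.31. Of all genes, 58.3% differed from Suclg2 without the moderation and 91.3% with the library pair as a term.

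Fh1, fumarase, had 61.8, 49.0, 8.97 and 6.92 CPM in replicates 1 to 4. The malate dehydrogenases Mdh1, of the cytosol, and Mdh2, of mitochondria, carry reducing equivalents across the mitochondrial membrane in the malate-aspartate shuttle. Mdh1 had 262, 236, 157 and 121 CPM, and Mdh2 411, 450.3, 115 and 85.1 CPM, the second highest mean of the 44 at 265 CPM. Mdh2 led in replicates 1 and 2 and Mdh1 in replicates 3 and 4. The difference, Mdh1 minus Mdh2, was -0.16 ± 0.51 on the log2 scale (SE, n = 4) and did not pass (limma adjusted p = 0.775 and 0.713 without the moderation), where 87.1% of all genes differed from Mdh2. It was -0.79 in replicates 1 and 2, against 0.47 in replicates 3 and 4, and 0.31 per length.

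The library pairs are no group of the study, and their values are a description with no test. Of the 38 that averaged 10 CPM or more, 25 were at least 2-fold higher in replicates 1 and 2 with no overlap between the pairs, as were 22.8% of all 8580 genes with such a mean. Eno1 alone met the same rule in the other direction, which 8.85% of all genes did. The 25 comprised 12 of 16 glycolytic genes, 10 of 13 TCA cycle genes, 2 of 6 pyruvate dehydrogenase genes and 1 of 3 transporters. The median log2 difference was 1.45 for glycolysis, 1.13 for the TCA cycle, 0.25 for the transporters and -0.09 for pyruvate dehydrogenase and its kinases. It was 1.10 over all 44 genes, against 0.19 over the 8580 genes. The medians of the 44 genes and of their groups include genes below 10 CPM, which the 8580 leave out. The largest differences were those of Idh3g (3.42), Ldhb (2.96), Fh1 (2.66), Idh2 (2.49) and Aldoc (2.48).

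Rescaling the libraries without the 18S locus and the mitochondrially encoded genes moved the median of all genes by -0.18, to 0.01, and that of the 44 genes to 0.93. The 44 genes, at any level, stood 0.91 above all genes averaging 10 CPM or more before and 0.92 after. The group medians became 1.26 for glycolysis, 0.96 for the TCA cycle, 0.07 for the transporters and -0.26 for pyruvate dehydrogenase. With this rescaling 19 genes, in place of 25, passed the 2-fold rule as higher in replicates 1 and 2, as did 18.2% of all genes. Exonic length also moved with the difference: its rank correlation with the log2 difference was -0.37 over the 44 genes and -0.38 over 8571 genes with a known length, all measured in the same libraries. Within length classes the 44 genes had medians of 1.34 (9 genes), 1.58 (15 genes) and 0.76 (20 genes) from 1500 to 3000, 3000 to 4500 and above 4500 bases. All genes averaging 10 CPM or more had 0.76, 0.41 and -0.07 in these classes.

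Cell type markers differed between the pairs as well. The 6 markers of myelinating Schwann cells summed to 2.89% and 2.79% of the CPM in replicates 1 and 2, against 1.56% and 1.52% in replicates 3 and 4. The 6 markers of satellite glia took 0.123% and 0.120%, against 0.0626% and 0.0570%. Every Schwann cell marker had the higher mean in replicates 1 and 2, whereas of the satellite glia markers 4 did, led by Apoe, and 2, Kcnj10 and Cdh19, were the higher in replicates 3 and 4. The 10 neuronal markers took 1.55% and 1.55%, against 1.40% and 1.24%, with 6 of them higher in replicates 1 and 2. The 7 of skeletal muscle took 0.0969% and 0.0940%, against 0.0541% and 0.0467%, with all 7 higher in replicates 1 and 2. As means of each pair, the 5 red blood cell markers took 0.101%, against 0.0516%, the 5 fibroblast markers 0.184%, against 0.140%, and the 4 endothelial markers 0.0102%, against 0.0100%, with 3 of 5, 2 of 5 and 3 of 4 markers higher in replicates 1 and 2, in that order. These sums thus combine markers that ran opposite ways, and each marker of the lists named so far was detected in every library. Macrophage markers, 3 of 6 detected throughout, took 0.0238%, against 0.0150%, and adipocyte markers, 2 of 3, took 0.0148%, against 0.00457%. The 4 markers of central glia, 2 of them detected throughout, stayed near 0 at 0.000733%, against 0.000744%. No marker was at 0 in all 4 libraries. The part of these, of depth and of RNA quality in the difference between the pairs was not tested.

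**Figure D4:**
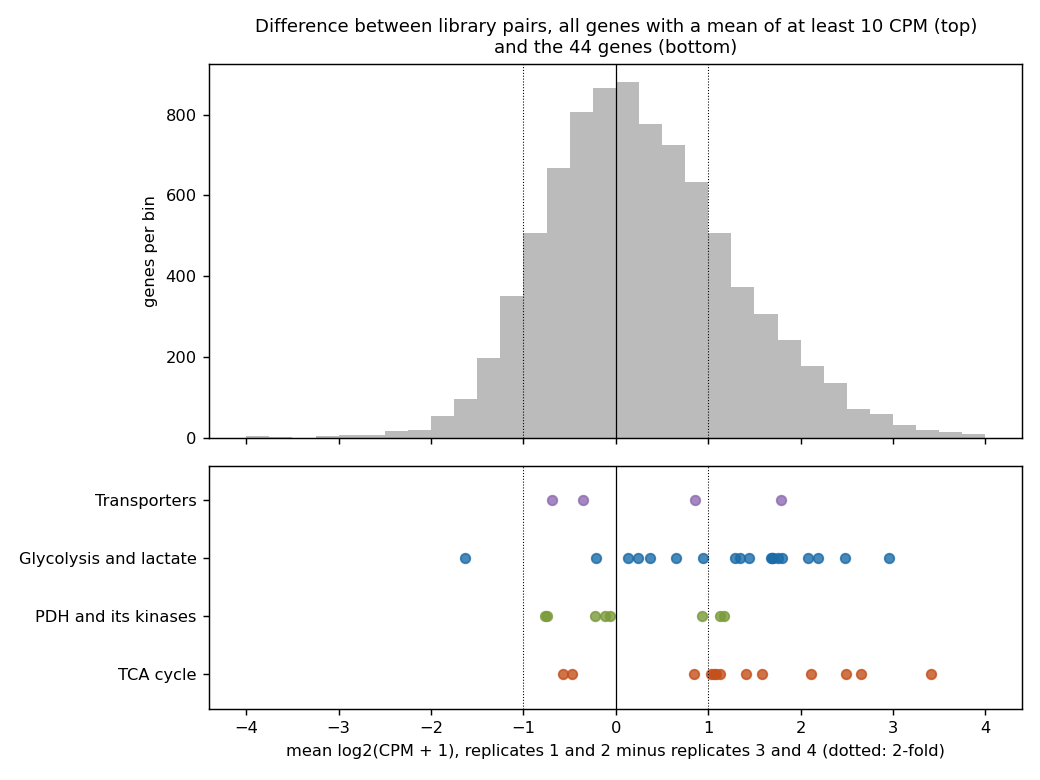
Mean log2(CPM + 1) of replicates 1 and 2 minus that of replicates 3 and 4. The upper panel counts genes per bin for the 8580 genes that averaged 10 CPM or more, with values beyond the axis counted in the outer bins, and the lower panel shows the 44 genes as points by group. Dotted lines mark 2-fold. The glycolysis and TCA cycle points lie mostly right of the centre of the distribution, whose median is 0.19, with Idh3g at 3.42 and Eno1 at -1.63 as the extremes.

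A wider list of 68 genes of the same and neighbouring pathways showed which isoforms were scarce. Of these, 46 were detected in all 4 libraries, 15 stayed below 1 CPM in all 4 and 6 of the 15 were listed at 0 throughout. Those at 0 included Slc2a2, the glucose carrier of liver and pancreas, Ldhc, Gapdhs and Pgk2, the testis forms of enzymes above, and Pdha2, the testis form of Pdha1. Those above 0 in at least 1 library included Hk3, Hkdc1, Fbp1, Pklr, Eno1b, Eno4, Ldhal6b and Mdh1b, of which Pklr is the liver form of pyruvate kinase. A listing at 0 allows up to 3 reads, or between 0.296 and 0.538 CPM in these libraries, and this limit covers counting error only.

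The highest 5 of the wider list were Taldo1 (809.6 ± 82.5 CPM), Tkt (643 ± 97.7 CPM), Idh1 (451 ± 294 CPM), Bsg (381 ± 276 CPM) and Acly (247 ± 31.9 CPM; SD, n = 4 each). Taldo1 and Tkt are the transaldolase and transketolase of the pentose phosphate pathway, and their means in CPM exceeded that of Pgam1, the highest of the 44, at 507 ± 258 CPM (SD, n = 4). Per kilobase of exon Taldo1 had 373 CPM and Tkt 87.4 CPM, against 256 CPM for Pgam1. Taldo1 had 874, 887, 752 and 726 CPM in replicates 1 to 4, and Tkt 667, 768, 594 and 543 CPM, which is slightly below Pgam1 in replicates 1 and 2. Both differed less between the library pairs than Pgam1 did, with log2 differences of 0.25 for Taldo1, 0.33 for Tkt and 1.34 for Pgam1. Bsg, the chaperone that carries the monocarboxylate transporters to the membrane, had 612, 627, 143 and 141 CPM. Idh1, the cytosolic NADP-linked isocitrate dehydrogenase, had 706, 704, 202 and 191 CPM, and was the higher of Idh1 and Idh2 in every library, at 163 CPM per kilobase against 9.90 for Idh2. Acly, which makes acetyl-CoA from citrate in the cytosol, had 233, 244, 292 and 219 CPM.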

How the data were processed

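RNA was measured in 4 libraries of 1 group. Ribosomal RNA was removed before library preparation with a QuantSeq kit, per the labels' protocols. The builds mm10 and GRCm38.p4 are named in the submitters' processing notes, along with Bowtie2 2.2.9, TopHat2 2.1.1, FastQC 0.11.5 and Cufflinks 2.2.1, in no stated role. For annotation, strand and reads matching several places, the method is not given in the sources used here. Deposited values are TPM per the file headers, but behaved as CPM: at least 98.27% of the values above 0 were whole multiples (tolerance 0.05) of a single step in each library, and each library summed to 1000000. They were used as CPM, so the planned log2(TPM + 1) became log2(CPM + 1). No count model was used.

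Members, gene lists, comparisons and the rule for named genes were chosen with earlier results of these data known. The rule names both genes of each comparison, the highest and lowest gene of each group, the highest 5 of the wider list and isoforms of the 44 genes below 1 CPM throughout; the remaining genes named were chosen after their values were seen. Detection meant 1 CPM. Each gene's within-library difference from a reference gene was fitted in R 4.3.3 by limma 3.58.1 (two-sided, with an intercept alone, pseudocount 1, mean of at least 1 CPM, Benjamini-Hochberg over 14816 genes). Folds on this scale understate differences of low genes. Per-length values used exonic lengths from GENCODE M21, joined over all transcripts of a gene, where 48052 identifiers (99.2%) had an entry. Copies were found with BLAST 2.17.0. Tables and figures were made with pandas 2.3.3, numpy 2.4.6 and matplotlib 3.10.9 under Python 3.11.15. The fit was tested on simulated data with independent libraries and no library pairs, so that test does not cover the pairs seen here. Replicates were left out in turn, and pseudocount, filter, scaling, length, copies, variance and the treatment of library pairs were varied. Certain genes and 1 sequence are not reported here.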

Additional observations from a re-analysis of the deposited data

Results flagged for a closer look

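Pfkl, the liver-type phosphofructokinase subunit, had 1.43 CPM in replicate 3, far from 5.42, 5.12 and 5.54 CPM in replicates 1, 2 and 4. The gap to the nearest library was 0.8995 of the whole range, above Dixon's 95% critical value for 4 samples. It was the only value so marked among 73 sets of 4 values: the 44 genes, the 24 within-library differences and the shares of the library. Chance marks about 1 in 20 such groups if the 4 values are interchangeable, but the differences and shares reuse the values of the genes. Where the libraries fall into pairs, the gap between the pairs takes up much of the range. The rule can then hardly mark a value, so the lack of other marks says little. The marked value of Pfkl rests on about 8 reads, against 55, 46 and 40 in the other libraries.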

How the results depend on the processing

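Pairing of replicates between groups was not possible because there is no other group whose replicates could be matched to these 4 by number. The comparisons between genes were paired, as each difference was taken within a library. Of 24 isoform comparisons 15 passed, a share within the range of all genes called against the reference genes (58% to 95.8%), and between 14 and 15 when 1 replicate was left out. The count was 15 with a pseudocount of 0.1, after rescaling, with copies added or with the ordinary variance, 14 per length, 14 with 1 value per library pair, 17 with no filter and 22 with the library pair as a term. Of all genes, 27.4% to 93.7% were called against the reference genes with the ordinary variance and 51.1% to 91.9% per length. The ranges were 28.2% to 92.5% with 1 value per library pair, 76.2% to 97.6% with no filter and 72.4% to 98.1% with the library pair as a term. With 1 replicate left out the shares ran from 43.4% to 95.05%, both without replicate 4. They ran from 57.4% to 95.4% with a pseudocount of 0.1, 58.96% to 95.85% after rescaling and 57.98% to 95.8% with copies added. Fits with 1 value per pair have 1 residual degree of freedom and rest almost wholly on the moderated variance, so their calls say little about a single comparison. Over 12 alternatives, single comparisons kept direction and side of the threshold in 250 cases, gained a call in 18, lost it in 13 and turned sign in 7. All 7 belong to comparisons that did not pass. Idh3g against Idh3a ranged from -0.14 to 1.17 with 1 replicate left out, and was -0.12 without replicate 1 and -0.14 without replicate 2. Ogdh against Dlst ranged from -0.0556 to 0.56, and was -0.0556 without replicate 3 and -0.0366 without replicate 4. Mdh1 against Mdh2 ranged from -0.38 to 0.10, was 0.00517 without replicate 1 and 0.10 without replicate 2, and 0.31 per length. The cause was not tested. The share held by all 44 genes was 0.331% per length, 0.419% after rescaling and between 0.338% and 0.447% with 1 replicate left out. Detection in every library held for 44 genes at 0.5 CPM and 36 at 5 CPM, thresholds at which the share of all listed genes was not computed. The 2-fold rule between library pairs, in either direction, was met by 26 genes (31.6% of all genes tested), by 20 after rescaling (31.2%), and by 32 at 1.5-fold (54.8%). Depth limits the genes with few reads, Pfkl and Pdk4 above all.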

Other observations

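The wider list also held muscle forms of enzymes, chosen here after their values were seen. Eno3, the muscle enolase, had 15.9, 16.8, 2.15 and 4.98 CPM in replicates 1 to 4, and Pgam2, the muscle phosphoglycerate mutase, had 24.3, 24.6, 16.1 and 11.6 CPM. Both were higher in replicates 1 and 2, where the skeletal muscle markers summed to 0.0954% of the CPM, against 0.0504% in replicates 3 and 4. Slc2a4, the insulin-responsive glucose carrier of muscle and fat, had 51.1, 55.9, 33.9 and 32.7 CPM, a mean of 43.4 CPM against 32.2 CPM for Slc2a3 and 15.1 CPM for Slc2a1. Per kilobase of exon these were 12.5 CPM against 4.44 and 4.29 CPM. Mpc1 and Mpc2 form the pyruvate carrier of the mitochondrial inner membrane. Mpc1 had 10.5, 9.36, 0.896 and 1.52 CPM, and Mpc2 43.99, 40.0, 24.7 and 27.7 CPM.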
